A study of Mus musculus with 4 samples.

Results

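Transcripts of 8 genes were followed in single immune cells of the mouse small intestine: the mast cell and basophil proteases Mcpt1, Mcpt2, Mcpt4, Mcpt8, Cma1 and Cpa3, and the IgE receptor subunits Fcer1a and Ms4a2. They were taken by symbol from the 32285 genes in the deposited matrices, and all 8 were found in all 4 libraries. The libraries are 5′ single-cell RNA sequencing (10x Genomics) of CD45+ cells sorted from intestinal crypts of male mice, with 18000 cells loaded per sample. There were 2 samples from mice titled cystine, whose feed the protocol calls a high-cysteine diet and the design text cystine (cysteine in its disulphide-linked form), and 2 from mice on a control diet. Diets were read from the sample titles, since the treatment field reads "Control" for every sample. Strain, age and the length of feeding are not given in the sources used here, nor is it said whether a sample is 1 mouse or a pool. Thus a p-value here speaks only of the spread among these 4 samples.

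Mast cells are tissue-resident cells that store proteases, histamine and serotonin in granules and release them when IgE bound to their surface meets its antigen. The high-affinity IgE receptor holds the α chain (Fcer1a), which binds IgE, the β chain (Ms4a2), which amplifies the signal, and the shared signalling chain Fcer1g. In mice the mast cells of the gut mucosa are known for the chymases Mcpt1 and Mcpt2. Mast cells of connective tissue are known for Mcpt4, Cma1, the tryptases Tpsb2 and Tpsab1 and the carboxypeptidase Cpa3. Basophils, circulating relatives of mast cells, are known for the proteases Mcpt8 and Prss34, and they carry the IgE receptor as well.

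Between 15391 and 19351 barcodes were deposited per sample, and 16324 and 14379 cells were kept in the cystine samples and 14563 and 13483 in the control samples. Kept cells held 22354425 to 25785742 UMIs (unique molecular identifiers, each counting 1 captured transcript) per sample, with medians of 1293.5 to 1712 per cell. The sort was for CD45, and its gene Ptprc had a UMI in 66.8% and 71.4% of kept cells of the cystine samples and 73.9% and 74.2% of those of the control samples. By markers, T cells made up 77.1% and 85.2% of kept cells in the cystine samples, against 91.8% and 93.8% in the control samples. B cells made up 16.8% and 6.95% in the cystine samples, against 2.99% and 2.54% in the control samples. Pairs of libraries shared 335 to 454 barcode sequences, 2.18% to 2.69% of the smaller library, and 0 barcodes with the mast cell pattern defined below were shared.

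Mcpt1, Mcpt2, Mcpt4, Mcpt8 and Cma1 lie on chromosome 14 in one array of related serine proteases, whereas Cpa3 is on chromosome 3, Fcer1a on chromosome 1 and Ms4a2 on chromosome 19. In the RefSeq order of protein-coding genes Mcpt1 is followed by Mcpt2, Mcpt9, Mcpt4 and Mcpt8, and then by Ctsg, which encodes cathepsin G. Cma1 lies on the other side of Mcpt1, separated from it by Cma2. The RefSeq model of Mcpt2 overlaps that of Mcpt9, so the split of reads between that pair is uncertain. Between any pair of the 8 members, the GENCODE M21 transcripts shared no exact stretch of 50 bases. The longest was 49 bases, between Mcpt1 and Mcpt2. Mcpt4 shared one of 56 bases with Mcpt9.

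The RefSeq promoter table (GRCm38.p6) held 7 of the 8 genes, and 4 of its windows are shown because their genes behaved differently in these cells. The few cells with the mast cell pattern defined below, which the members chose, held 89.2% of Mcpt1 UMIs and 80.0% of Mcpt4 UMIs. They held 54.4% of Cpa3 UMIs and 6.06% of those of Cma1, from the same array as Mcpt1. Each window is the 250 bases before the annotated start, 5′ to 3′ on the strand of the gene. Capitals mark the letters GATAA or, on the opposite strand, TTATC.
Mcpt1 promoter (GRCm38.p6 chr14:56017714-56017963, plus strand): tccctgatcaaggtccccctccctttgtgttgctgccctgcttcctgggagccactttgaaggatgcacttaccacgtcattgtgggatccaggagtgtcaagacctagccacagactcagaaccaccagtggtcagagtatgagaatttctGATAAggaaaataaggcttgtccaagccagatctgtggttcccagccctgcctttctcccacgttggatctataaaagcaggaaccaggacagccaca
Mcpt4 promoter (GRCm38.p6 chr14:56062311-56062560, minus strand): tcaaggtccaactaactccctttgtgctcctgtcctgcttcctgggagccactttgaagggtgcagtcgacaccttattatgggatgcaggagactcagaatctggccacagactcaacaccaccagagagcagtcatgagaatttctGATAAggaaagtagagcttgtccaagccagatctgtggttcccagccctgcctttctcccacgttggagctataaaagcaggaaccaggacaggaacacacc
Cpa3 promoter (GRCm38.p6 chr3:20242182-20242431, minus strand): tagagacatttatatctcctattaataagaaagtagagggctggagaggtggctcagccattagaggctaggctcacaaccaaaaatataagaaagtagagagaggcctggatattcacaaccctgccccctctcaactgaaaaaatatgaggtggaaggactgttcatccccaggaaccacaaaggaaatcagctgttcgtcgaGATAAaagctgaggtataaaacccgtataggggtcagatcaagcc
Cma1 promoter (GRCm38.p6 chr14:55944676-55944925, minus strand): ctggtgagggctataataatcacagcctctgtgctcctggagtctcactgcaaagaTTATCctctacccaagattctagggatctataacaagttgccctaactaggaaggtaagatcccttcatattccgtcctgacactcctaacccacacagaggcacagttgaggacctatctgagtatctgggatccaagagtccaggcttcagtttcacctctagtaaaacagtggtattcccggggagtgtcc
These letters are the core of the motif bound by GATA factors such as Gata2, and a match is a description, not a site. They were present in 6 of the 7 windows, Mcpt8 being the one without, against 22.6% of all 32851 windows in the table. The match began at position -98 in Mcpt1, -102 in Mcpt4, -45 in Cpa3 and -194 in Cma1, counted back from the start. The letters TATAAA on the strand of the gene are held by 7.59% of all windows. They were at -28 in Mcpt1, -32 in Mcpt4, -31 in Cpa3 and -125 in Fcer1a. Cma1, Mcpt8 and Ms4a2 did not hold them. TATAAA overlapped no GATAA match. Aligned end to end, the Mcpt1 and Mcpt4 windows were 81.9% identical, against 51.3% for Mcpt1 and Cma1 and 54.3% for Mcpt1 and Mcpt8.

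Over all deposited barcodes, Mcpt1 had 11600 UMIs in 1366 barcodes and Mcpt2 had 5130 UMIs in 614 barcodes. The other members were scarcer. Cpa3 had 503 UMIs in 281 barcodes, Mcpt4 had 369 in 102, Fcer1a 106 in 43, Ms4a2 83 in 56, Cma1 71 in 38 and Mcpt8 41 in 20. These UMI counts describe how often each gene was read, not its level in a cell, and differences in capture between genes were not tested.

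Of the 58749 kept cells, 56860 had no member UMI, 1730 had 1 member and 106 had 2. A further 53 had 3 to 7 members, and 0 cells had all 8. A cell with at least 3 members was taken as a mast-lineage candidate. It was called a mucosal mast cell pattern when Mcpt1 and Mcpt2 together exceeded Mcpt8, and a basophil pattern when Mcpt8 exceeded Mcpt1, Mcpt2, Mcpt4 and Cma1 together. At the edge of this rule, the 11 cells with exactly 3 members had a median of 6 member UMIs (3 to 115), and the 106 cells with 2 members had a median of 2 and at most 6. All 53 candidates had the mucosal mast cell pattern, 7 and 21 in the cystine samples and 11 and 14 in the control samples. The basophil pattern was found in 0 kept cells, which allows a share of up to 0.0184% and 0.0209% in the cystine samples and 0.0206% and 0.0223% in the control samples.

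Within the 53 cells the members differed in how regularly they were read, a description only, since the members chose the cells. Mcpt2 was read in all 53 (median 45 UMIs, highest 430) and Mcpt1 in 52 (median 130, highest 898). By sample the median Mcpt1 count per cell was 130 and 49 UMIs in the cystine samples and 139 and 239.5 in the control samples, with median depths of 1724 and 1650 UMIs in the cystine cells and 1908 and 2677 in the control cells. Cpa3 was read in 44 cells (median 2, highest 35), Ms4a2 in 30 (highest 6), Fcer1a in 27 (highest 10) and Mcpt4 in 25 (highest 35). Mcpt8 was read in 7 cells (highest 12) and Cma1 in 4, with 1 UMI in each. Mcpt1, Mcpt2, Mcpt4, Mcpt8 and Cma1 together took 9.33% of all UMIs of the median cell and up to 24.8%.

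**Figure D1:**
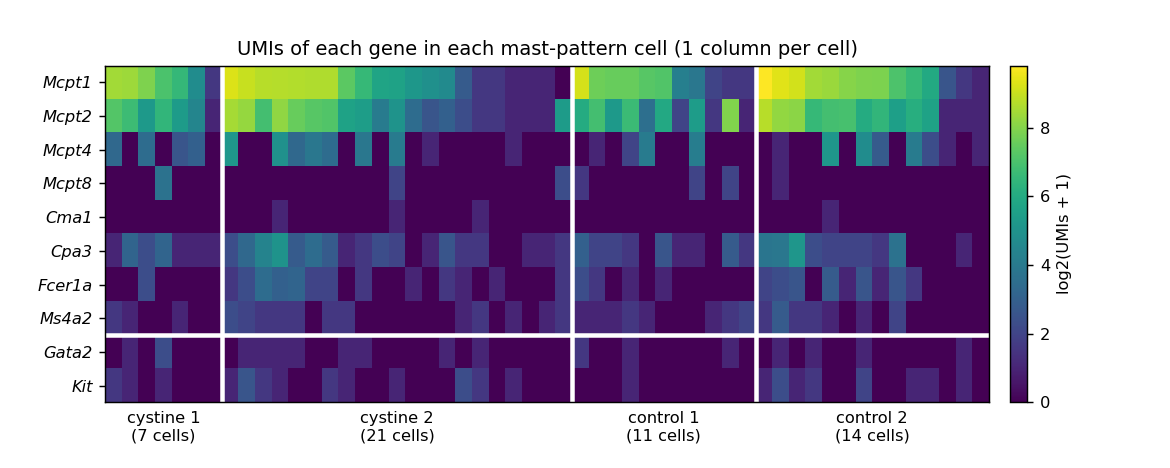
UMIs of the 8 members, and of Gata2 and Kit below the white line, in each of the 53 cells with the mucosal mast cell pattern, as log2(UMIs + 1). Each column is 1 cell, grouped by sample (7 and 21 cystine cells, 11 and 14 control cells) and sorted by Mcpt1 within a sample. Mcpt1 and Mcpt2 fill nearly every column, whereas Cma1 appears in 4.

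The pattern covered cells of very different protease load. In 42 cells Mcpt1 and Mcpt2 together had 10 UMIs or more, and these 5 serine proteases took a median of 11.9% of the UMIs of a cell. In the other 11 cells, 1 and 5 in the cystine samples and 2 and 3 in the control samples, these proteases took 0.105% to 0.633%. Of these 11 cells, 9 also had 2 or more UMIs of T cell genes, against 10 of the 42. The part of mixed droplets in these cells was not tested.

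Mcpt1 made up a median of 72.1% of the Mcpt1 and Mcpt2 UMIs (55.0% to 93.3%) in the 35 cells with at least 10 such UMIs and no Mcpt8. The 7 cells with Mcpt8 had a median of 60.2% and spanned 0% to 89.9%. They came from all 4 samples, 1 and 2 from cystine and 3 and 1 from control, and 0 of them had 2 or more T cell UMIs. Among the 42 cells, 3 had more Mcpt2 than Mcpt1, and all 3 had Mcpt8, an observation made after their values were seen. In a cell of cystine replicate 2 these were 0 Mcpt1, 41 Mcpt2 and 4 Mcpt8 UMIs. A cell of control replicate 1 had 2 Mcpt1, 248 Mcpt2 and 3 Mcpt8 UMIs, and another had 14, 42 and 3. The highest Mcpt8 count, 12 UMIs, was in a cell of cystine replicate 1 with 130 Mcpt1, 86 Mcpt2 and 4 Gata2 UMIs. Even there Mcpt8 was far below the mucosal chymases.

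**Figure D2:**
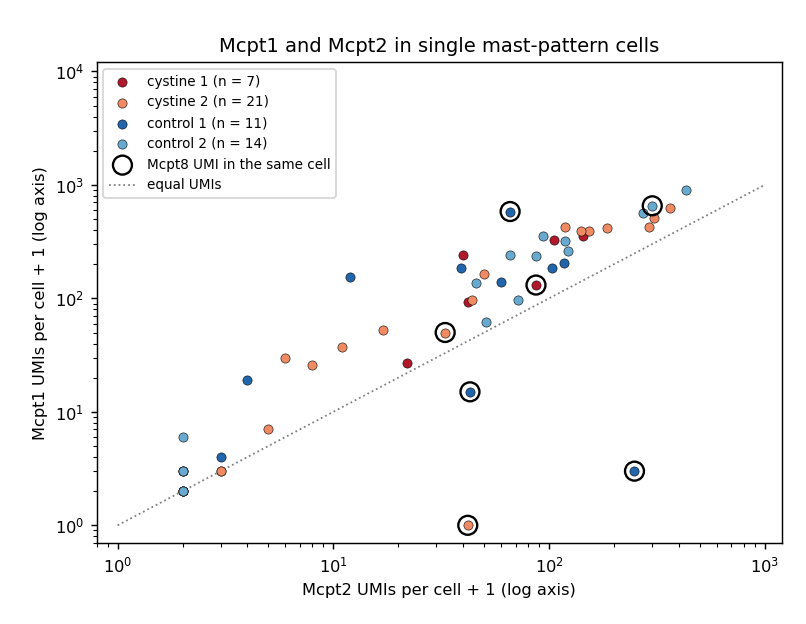
Mcpt1 against Mcpt2 UMIs (each + 1, log axes) in the 53 cells with the mucosal mast cell pattern, coloured by sample. Rings mark the 7 cells with Mcpt8, and the dotted line marks equal counts. The 3 ringed cells below the line have more Mcpt2 than Mcpt1.

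Mcpt4 was read in 22 of the 42 cells with at least 10 Mcpt1 and Mcpt2 UMIs, 4 and 8 in the cystine samples and 4 and 6 in the control samples. The Mcpt1 share had a median of 68.9% in these cells, against 75.4% in the 20 cells without Mcpt4. The 2 IgE receptor subunits were read about equally often. Fcer1a was found in 26 and Ms4a2 in 25 of the 42 cells, and in 1 and 5 of the 11 cells under 10 UMIs. Both subunits were read in the same cell 17 times, each time in a cell with the mast pattern. The rule favours this, since both subunits count toward the 3 members that it asks for.

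Cells were also chosen without the members, by at least 3 of 11 companion genes of mast cells and basophils. This took 14 kept cells, 2 and 7 from the cystine samples and 1 and 4 from the control samples, and 12 of them had at least 3 members. Mcpt1 was read in all 14 (median 267.5 UMIs), Mcpt2 and Cpa3 in 12 each, Ms4a2 in 11, Fcer1a in 7, Mcpt4 in 5, Mcpt8 in 3 and Cma1 in 2. In the other 58735 kept cells the shares ran from 0.0238% for Mcpt8 to 1.94% for Mcpt1. No member was used to find these 14 cells, but the companion list was chosen with earlier results of these data known. Of the remaining 2 cells, a cell of control replicate 2 had 2 Mcpt1 and 1 Mcpt8 UMIs beside 2 of Il1rl1 and 1 each of Kit, Hdc and Cd200r3.

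The 14 mast companion genes differed widely in how many of the 53 cells they were read in. Gata2, a transcription factor of the mast cell and basophil lineages, was read in 17 of the 53 cells and in 0.0119% of other kept cells. Tph1, which makes serotonin, was read in 20 cells and Slc18a2, which loads amines into granules, in 13, against 0.0426% and 0.0852% of other cells. Cyp11a1, a steroid-synthesis enzyme, was read in 12 cells, Il1rl1, the IL-33 receptor, in 11, Mitf, a transcription factor, in 10 and Hpgds, a prostaglandin D synthase, in 15. Kit, the stem cell factor receptor, was read in 22 cells, but also in 7.32% of other kept cells. Hdc, which makes histamine, was read in 2 cells, Ltc4s in 3 and Rgs13 in 1. Tpsb2, Tpsab1 and the connective tissue receptor gene Mrgprb2 had 0 UMIs in all kept cells.

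The 10 basophil companion genes were read unevenly. Prss34 had 0 UMIs in all kept cells, Itga2 and Cebpa had 0 in the 53 cells, and Cd200r3 was read in 1. Il4, the type 2 cytokine, was read in 14 of the 53 cells, against 0.138% of other kept cells. Il6 was read in 3, Csf1 in 2 and Ifitm1, an interferon-inducible membrane gene, in 41. Gata2 and Hdc, which belong to both lists, are given above.

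Genes downstream of the IgE receptor are shared with other immune cells. Fcer1g was read in 43 of the 53 cells (81.1%) and in 75.8% of other kept cells. The shares were 50.9% against 0.0239% for Fcer1a and 56.6% against 0.0307% for Ms4a2. These 2 genes are members and helped to choose the cells, so their contrast cannot be set against that of Fcer1g. The kinase genes Syk and Btk were read in 11 and 4 cells, and the adaptor gene Lat2 in 29. Of the mediator genes, Alox5, which starts leukotriene synthesis, was read in 19 cells (0.0426% of other cells) and its partner Alox5ap in 35. Srgn, the granule proteoglycan core, was read in 38 (71.7%), against 69.8% of other cells. Il13, a type 2 cytokine, was read in 2 cells.

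Markers of other cell types were at 0 in the 53 cells for some lists and not for others. All 4 neutrophil markers had 0 UMIs there, and so did the eosinophil markers Epx and Prg2, while Siglecf was read in 3 cells. Of the T cell genes, Cd3e was read in 22 of the 53 cells (0 and 9 cystine, 6 and 7 control), against 83.5% of other kept cells, and Trbc2 in 4. All 4 B cell markers were read, Cd79b in 6 cells and the others in 1 or 2. All 5 plasmacytoid dendritic cell markers were read as well, Ccr9 in 7 cells, Bst2 in 6 and Siglech in 2. Itgax of the dendritic list was read in 14 cells, Xbp1 of the plasma cell list in 10 and the Paneth cell gene Defa24 in 5. The part of mixed droplets or free RNA in these reads was not tested. Epcam, an epithelial marker, was read in 1 cell.

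Over all genes not among the members with at least 20 UMIs and read in at least 25% of the 53 cells, those with the steepest ratio of CPM (UMIs scaled to the total of the cells) inside over outside were ranked. The first was Mcpt9, another chymase of the chromosome 14 array, with 208 UMIs inside and 56 outside. It was followed by Gata2, Tph1, Ifitm1, Cd34, Alox5, Gmpr, Angpt1, Car8, Thsd4, Cd63, Prnp, Npl, Meis1 and Il4. The ratio ran from 126 for Il4 to 2448 for Mcpt9, over 53 and 58696 cells, and was above 1 in all 4 samples for all 15 genes. Since the members chose the cells, this ranking is a description.

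The members differed in where their UMIs lay among kept cells, a description only, since the members chose the cells with the mast pattern. Cells with the mast pattern held 89.8% of Mcpt2 UMIs, 89.2% of Mcpt1, 86.5% of Fcer1a, 80.0% of Mcpt4, 76% of Ms4a2 and 73.7% of Mcpt8. They held 54.4% of Cpa3 UMIs and 6.06% of Cma1 UMIs. Outside these cells the highest count in a single cell was 5 for Mcpt1, 3 for Mcpt2 and Cpa3, 2 for Mcpt4 and 1 for Mcpt8, Fcer1a and Ms4a2, but 11 for Cma1.

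**Figure D3:**
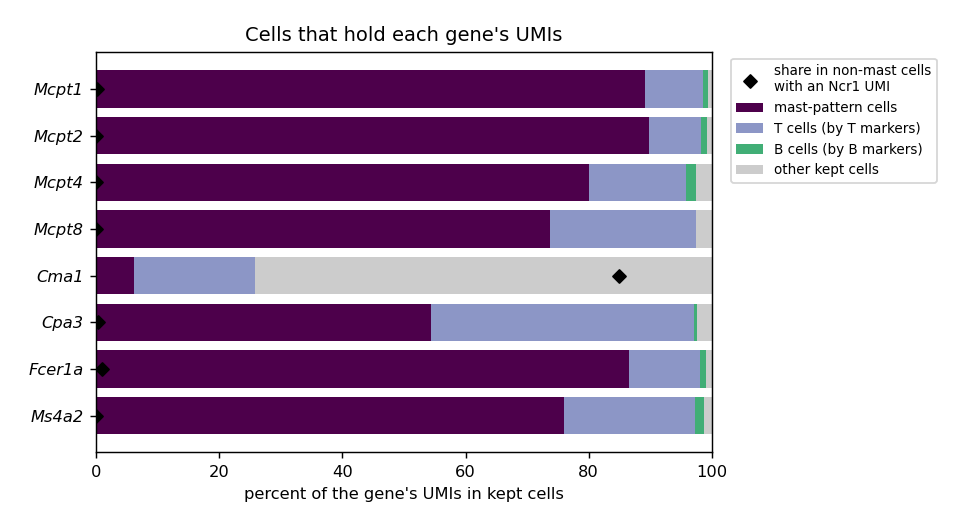
Percent of the UMIs of each gene that lay in cells with the mast pattern, in T cells, in B cells and in other kept cells, summed over the 4 samples. Diamonds give the percent in cells outside the mast pattern with an Ncr1 UMI, which is 84.8% for Cma1 and under 1% for the other 7 genes.

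Cma1, a chymase named for mast cells, was read mainly in cells of another kind. It had 66 UMIs in 35 kept cells, and 26 of these cells, with 56 of the UMIs, also had Ncr1, which encodes the NKp46 receptor of natural killer and other innate lymphoid cells. Of the 14 cells with 2 or more Cma1 UMIs, 13 had Ncr1. The highest count, 11 Cma1 UMIs, was in a cell of control replicate 2 with 5 Ncr1 UMIs, 12 of Tyrobp and 0 of the T cell genes. Just 4 of the 35 cells had Mcpt1 or Mcpt2, each of them with the mast pattern.

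Among cells outside the mast pattern with an Ncr1 UMI, Cma1 was read in 5.88% and 12.2% in the cystine samples (51 and 74 cells) and in 12.9% and 12.8% in the control samples (70 and 39 cells). Over all 4 samples it was read in 11.1% of 234 such cells (exact 95% interval 7.39% to 15.9%) and in 0.00855% of the 58462 cells with neither Ncr1 nor the mast pattern (0.00278% to 0.0200%). Median depth was 1736 and 1441 UMIs. With T cell-marked cells left out, 18.1% of 127 cells with Ncr1 had Cma1. The genes with the steepest CPM ratio in the 35 cells with Cma1 were Klra4, Klra8, Klra9, Ncr1, Klrg1, Klrk1, Klrc1 and Klrb1c, all but Ncr1 lectin-like receptors found on natural killer cells. This list was made after the values were seen, and reads of the near-identical Klra genes may be split between them.

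Cpa3 was the other member with many UMIs outside the mast pattern. It was read in 196 of 50855 T cells, 0.385% (exact 95% interval 0.3334% to 0.443%), and in 3 of 4514 B cells, 0.0665% (0.0137% to 0.194%). These shares pool the cells of all samples, and 2736 of the B cells came from cystine replicate 1, so differences between samples enter them. The T cell share was 0.191% and 0.547% in the cystine samples and 0.292% and 0.522% in the control samples, and the B cell share was 0.0365% and 0.200% in the cystine samples and 0% in both control samples. Within single samples the difference was not tested, and the intervals cover counting error only. The 95% intervals of the B cell shares reached 0.203% and 0.721% in the cystine samples, which overlap those of the T cell shares, and the 436 and 342 B cells of the control samples allow up to 0.688% and 0.877%. Median depth was 1462 UMIs in T cells and 1195 in B cells. With each cell thinned to 1000 UMIs, the shares were 0.249% of 39034 T cells and 1 of 3200 B cells, and 11821 T cells and 1314 B cells were left out as too shallow. Within T cells the share was 0.398% with Cd8b1, 0.387% with Trdc and 0.380% with none of Trdc, Cd4 and Cd8b1. It was 0 of 430 cells with Cd4, which allows up to 0.698%.

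Mcpt1 and Mcpt2 were set side by side in T and B cells in the same way, again with the cells of all samples pooled. Mcpt1 was read in 1.90% of T cells and 1.64% of B cells, and Mcpt2 in 0.8003% and 0.930%, and the source of these UMIs was not tested. With each cell thinned to 1000 UMIs, Mcpt1 was read in 1.07% of T cells and 1.09% of B cells, and Mcpt2 in 0.428% of T cells and 0.8125% of B cells. By sample, Mcpt1 was read in 1.10% and 3.54% of T cells in the cystine samples and in 1.42% and 1.61% in the control samples, cystine replicate 2 standing above the rest. Of the cells with Mcpt1 outside the mast pattern, 90.7% had a single UMI. Relative to 1000 Mcpt1 and Mcpt2 UMIs, Cpa3 had 14.9 and 20.5 UMIs inside the mast pattern in the cystine samples and 13.8 and 16.4 in the control samples. Outside it had 85.9 and 106 in the cystine samples and 135 and 173 in the control samples. The outside ratio was the higher one in all 4 samples. This is a description only, since Mcpt1, Mcpt2 and Cpa3 helped to choose the cells inside.

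**Figure D4:**
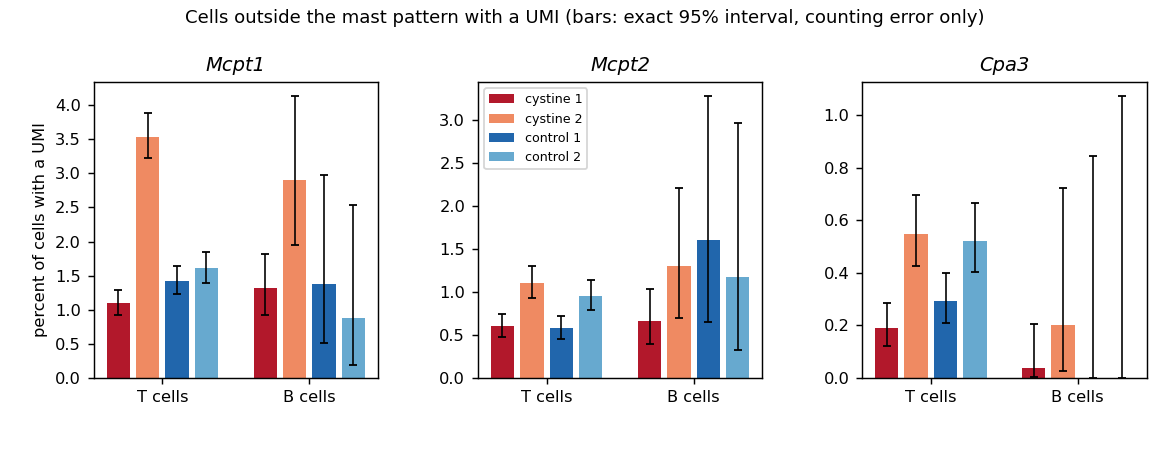
Percent of T cells and B cells with a UMI of Mcpt1, Mcpt2 or Cpa3, by sample, with exact 95% intervals that cover counting error only. For Mcpt1, cystine replicate 2 is highest in both T and B cells. For Mcpt2, control replicate 1 is at 0.576% in T cells and 1.61% in B cells. Cpa3 stands at 0.191% to 0.547% in T cells and at 0% to 0.200% in B cells.

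Mcpt8 outside the mast pattern was read in 10 cells with 1 UMI each, and 9 of them had T cell markers. Among all 58749 kept cells, 50855 counted as T cells. Of those 10 cells, 9 had no other member.

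The diets were compared first by the share of kept cells with the mucosal mast cell pattern. It was 0.0429% (exact 95% interval 0.0172% to 0.0883%) and 0.146% (0.0904% to 0.223%) in the cystine samples. In the control samples it was 0.0755% (0.0377% to 0.135%) and 0.104% (0.0568% to 0.174%). The cystine samples thus held both the lowest and the highest share. The means were 0.0945% ± 0.0729 in the cystine samples and 0.0897% ± 0.0200 in the control samples (SD, n = 2 each), and the two-sided exact permutation p was 1, where the smallest p that 2 samples against 2 allow is 0.33. Of the Mcpt1 and Mcpt2 UMIs in these cells, Mcpt1 made up 72.9% and 67.4% in the cystine samples and 68.3% and 69.8% in the control samples. The means were 70.1% ± 3.87 in the cystine samples and 69.1% ± 1.05 in the control samples (SD, n = 2 each, two-sided exact permutation p = 1).

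Levels were then compared on UMIs summed over all kept cells of a sample, where fewer cells of a type and less RNA per cell cannot be told apart. By edgeR's quasi-likelihood test with Benjamini-Hochberg adjustment over 14079 genes, 0 of the 8 members passed an adjusted p of 0.05, against 0.178% of all genes tested. At an unadjusted p below 0.05 there were also 0 of 8, against 9.52% of all genes, and DESeq2 called 0. The log2 fold changes of the 8 members had a median of -0.01, against 0.00 for all genes tested, and 4 of the 8 were above 0.

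Mcpt1 had 54.2 and 160.4 CPM in the cystine samples, against 74.3 and 168 CPM in the control samples. Mcpt2 had 21.5 and 73.99 CPM in the cystine samples, against 33.8 and 74.1 CPM in the control samples. In both diets replicate 1 was low and replicate 2 high, and the groups overlapped. The log2 fold change of Mcpt1 was -0.18 (SE 0.54, edgeR adjusted p = 0.983) and that of Mcpt2 was -0.18 (SE 0.58, edgeR adjusted p = 0.984). Cpa3 was also lower in replicate 1 of both diets and overlapped between them, with 1.95 and 7.24 CPM in the cystine samples and 3.17 and 6.48 CPM in the control samples (log2 fold change -0.07, SE 0.61, edgeR adjusted p = 0.992).

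Mcpt4 had 1.32 and 7.05 CPM in the cystine samples, against 1.87 and 4.08 CPM in the control samples (log2 fold change 0.49, SE 0.74, edgeR adjusted p = 0.948). Fcer1a had 0.239 and 1.98 CPM in the cystine samples, against 0.435 and 1.49 CPM in the control samples (0.21, SE 0.94, edgeR adjusted p = 0.988). Ms4a2 had 0.199 and 1.33 CPM in the cystine samples and 0.739 and 0.743 CPM in the control samples (0.06, SE 0.78, edgeR adjusted p = 0.995). For these 3 genes cystine replicate 1 was the lowest and cystine replicate 2 the highest of the 4 samples. Mcpt8, with 0.518 and 0.381 CPM in the cystine samples and 0.478 and 0.165 CPM in the control samples, rests on 4 to 13 UMIs per sample (0.48, SE 0.65, edgeR adjusted p = 0.933).

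Cma1 was the single member whose diets did not overlap, which 37.6% of all genes tested also did not. It had 0.120 and 0.686 CPM in the cystine samples, against 1.13 and 0.784 CPM in the control samples (log2 fold change -1.23, SE 0.73, edgeR adjusted p = 0.715), and rests on 3 to 26 UMIs per sample. Cells with Ncr1 outside the mast pattern made up 0.312% and 0.515% of kept cells in the cystine samples, against 0.481% and 0.289% in the control samples. Per 100 of these cells there were 5.88 and 17.6 Cma1 UMIs in the cystine samples, against 34.3 and 41.03 in the control samples. In control replicate 2, 11 of 16 such UMIs came from 1 cell. This difference per cell was not tested.

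**Figure D5:**
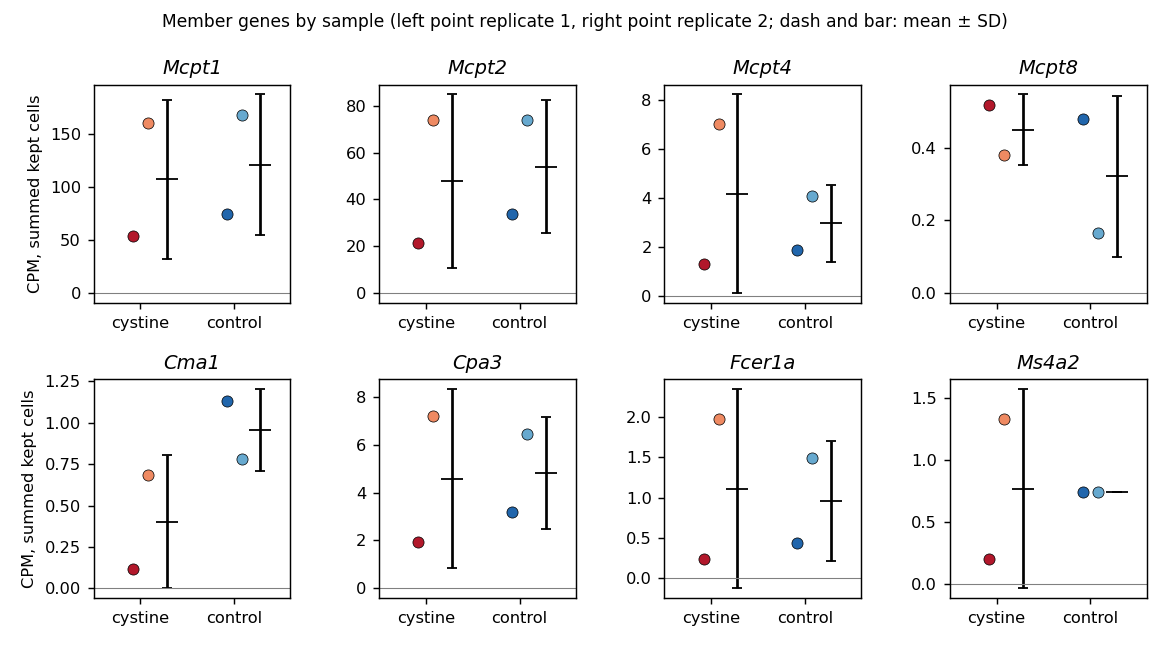
TMM-scaled CPM of each member in the summed kept cells of the 2 cystine samples (left) and the 2 control samples (right), with the mean and SD (n = 2 each). The vertical scale differs between genes. Cma1 is the one gene with both cystine points below both control points.

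Leaving out either cystine library changed the calls. Without cystine replicate 2, 4 members passed, beside 887 of all genes, each lower in the remaining cystine sample by edgeR: Mcpt1 (-1.16, adjusted p = 0.00016), Mcpt2 (-1.33, adjusted p = 2.13e-05), Cpa3 (-1.31, adjusted p = 0.00744) and Cma1 (-2.95, adjusted p = 0.0182). Without cystine replicate 1, just Mcpt4 passed, beside 521 of all genes, and it was higher (1.22, edgeR adjusted p = 0.00439). Over the alternatives run, the highest adjusted p was 0.9997 for Mcpt1, Mcpt2, Mcpt4 and Cpa3 and 0.9998 for Cma1. In both of these fits the lone cystine sample is assumed to vary like the controls.

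Of the 14 mast companions 8 were tested, of the 10 basophil companions 6, of the IgE receptor signalling genes all 12 and of the 16 mediator genes 12, with 0 called in each by edgeR. At an unadjusted p below 0.05 there were 1, 1, 3 and 1 genes in these lists, against 9.52% of all genes tested. The mast companion was Kit, with 39 UMIs in cells with the mast pattern and 5058 in other kept cells. The basophil companion was Cebpa, with 0 UMIs in cells with the mast pattern and 59 in other kept cells. The median log2 fold changes of the lists were -0.05, 0.14, -0.10 and 0.01. The lowest p among the mediators was that of Alox5ap, with 145 and 158 CPM in the cystine samples and 89.7 and 87.1 CPM in the control samples (0.78, SE 0.12, edgeR adjusted p = 0.0799). Among the signalling genes, Syk had 46.2 and 30.1 CPM in the cystine samples and 18.8 and 12.7 CPM in the control samples (1.27, SE 0.27, edgeR adjusted p = 0.149). Btk, a kinase that B cells also use, had 30.9 and 14.1 CPM in the cystine samples and 7.96 and 5.90 CPM in the control samples (1.70, SE 0.38, edgeR adjusted p = 0.179). All 4 B cell markers and all 4 plasma cell markers had log2 fold changes above 0, with medians of 2.07 and 1.71. All 6 T cell markers had values below 0, with a median of -0.42. Of these B cell, plasma cell and T cell markers, 0 were called by edgeR. Of the other marker lists, Prg2 among the eosinophil genes (4.17, edgeR adjusted p = 0.0170) and Lyz1 among the Paneth and goblet cell genes (4.78, edgeR adjusted p = 0.0138) were higher in the cystine samples. Of the eosinophil list, Epx had 0 UMIs in all kept cells, and Epx, Siglecf and Ccr3 had too few to be tested. Il5ra was not called (1.82, edgeR adjusted p = 0.487), and the cell type that held the Prg2 UMIs was not tested. The part of these marker shifts in the values of Syk, Btk and Alox5ap was not tested.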

How the data were processed

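Each deposited matrix gives raw UMI counts, genes by barcodes. Per the submitters' processing notes Cell Ranger 3.1.0, Seurat 4.0.1 and GRCm39 were used, whereas the matrix headers name version 7.0.1. The 8 members, the gene lists and the tests were chosen with earlier results of these data known. A barcode was kept if it had 300 genes or more and no more than 10% of its UMIs from mitochondrial genes, and the highest Scrublet scores (scanpy 1.11.5) were removed as doublets at 0.8% per 1000 barcodes. A T cell or B cell had at least 2 UMIs of 6 T or 4 B markers, whichever were more. Counts summed per sample were tested with edgeR 4.0.16 (filterByExpr, TMM, quasi-likelihood), and DESeq2 1.42.0 was an alternative. The fit was tested on simulated data. Shares were compared by exact permutation over samples. Intervals are Clopper-Pearson at 95%, and 3 counts set the limit for a count of 0, for counting error alone. Named were all members, every mast or basophil companion, up to 4 genes of other lists, and the 15 genes most alike. Promoter windows come from RefSeq (GRCm38.p6), another build than that of the notes. No protein sequences were used here. R was 4.3.3 and Python 3.11.15.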

Additional observations from a re-analysis of the deposited data

How the results depend on the processing

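The number of members called was 0 in the fit reported and with DESeq2 size factors, the DESeq2 Wald test, no filter on low counts, the replicate block, all deposited barcodes, doublets kept, immunoglobulin and T cell receptor genes left out and, chosen after seeing the data, cells with the mast pattern left out (4 members tested). Leaving out 1 sample gave 0 to 4. Over all genes the count of calls was 25, against 369 with the DESeq2 Wald test, 280 with the replicate block, 66 without receptor genes, 12 with doublets kept and 0 to 887 with 1 sample left out, 0 without control replicate 2 and 1 without control replicate 1.

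Leaving out 1 sample moved the log2 fold change of Mcpt1 between -1.16 and 0.52, of Mcpt2 between -1.33 and 0.49, of Mcpt4 between -1.18 and 1.22, of Mcpt8 between -0.10 and 1.39, of Cma1 between -2.95 and -0.49, of Cpa3 between -1.31 and 0.56, of Fcer1a between -1.99 and 1.34 and of Ms4a2 between -1.87 and 0.83. With cells of the mast pattern left out, Mcpt1 turned to 0.53 and Mcpt2 to 0.15, and the cause was not tested. With the replicate block, Fcer1a turned to -0.028 and Ms4a2 to -0.25. The replicate numbers were not taken as pairs, since the labels do not say that they mark pairs. Over all genes tested, same-numbered samples deviated together with a correlation of 0.0244. Mcpt1, Mcpt2, Mcpt4, Cpa3, Fcer1a and Ms4a2 were nonetheless lower in replicate 1 than in replicate 2 of both diets. For Ms4a2 the control samples were nearly equal (0.739 and 0.743 CPM). Mcpt8 went the other way in both diets, and Cma1 in the control diet. Cells with the mast pattern were also fewer in replicate 1, 7 and 21 in the cystine samples and 11 and 14 in the control samples.

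The difference in the share of cells with the mast pattern, cystine minus control, was 0.00478 percentage points. It was -0.0607 with at least 2 members, a rule that also takes cells with 1 UMI each of Mcpt1 and Mcpt2. With 1 sample left out it lay between -0.0468 and 0.0564, and the other alternatives kept its sign, among them 2 chosen after seeing the data (at least 10 UMIs of Mcpt1 and Mcpt2, fewer than 2 T cell UMIs). The difference in the Mcpt1 share was 1.07 points, -1.67 to 3.80 with 1 sample left out. The basophil pattern stayed at 0 cells under every alternative run. With 4 to 13 UMIs per sample for Mcpt8 and 3 to 26 for Cma1, depth limits what could be seen in these genes.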

Other observations

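In cystine replicate 2 the summed member UMIs outside the mast pattern had another makeup than those inside it. Mcpt1 made up 76.01% of the Mcpt1 and Mcpt2 UMIs outside (exact 95% interval 72.8% to 79.0%), against 67.4% inside (66.1% to 68.6%). Per 1000 of those UMIs there were 74.1 of Mcpt4 outside and 24.0 inside. The intervals take UMIs as independent and so are too narrow, since the Mcpt1 share of single cells inside spanned 0% to 85.3%. Whether the 2 makeups differ beyond the spread among cells was not tested. In the other samples the Mcpt1 share was 64.6% outside and 72.9% inside in cystine replicate 1, 71.5% and 68.3% in control replicate 1, and 63.4% and 69.8% in control replicate 2. Since the members chose the cells inside, these makeups are a description only, and the source of the UMIs was not tested.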
